A study of Homo sapiens with 6 samples.

Results

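Ribosome biogenesis and rRNA processing factors were followed in HEK293A cells after knockdown of UBE2A and UBE2B. The members were the genes whose deposited gene ontology text holds the exact term rRNA processing or ribosome biogenesis, without the ribosomal proteins named RPL or RPS. Of 159 genes with a term, 14 were named RPL or RPS and 145 were left, all of them in both deposited tables. A mean count of at least 10 over the 6 libraries kept 140 of these, out of 13565 genes tested. The 5 below it were MRM2 and FBLL1, with mean counts of 5.5 and 4.67, and PPAN-P2RY11, UTP14C and MIURF, each with a mean count of 0. By role, 43 members are small subunit factors, 32 large subunit factors, 9 snoRNP proteins, 9 exosome proteins, 7 RNase P or MRP proteins and 13 mitochondrial factors, and 27 are in none of these classes. A further 62 genes of the small and large subunit lists reached the same mean count without being members. No gene ontology text was used for 5172 genes, so being no member says nothing about how a gene is annotated.

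A ribosome is assembled in the nucleolus, where RNA polymerase I makes a long precursor rRNA that is folded, chemically modified, cut and joined to ribosomal proteins. The small subunit processome, built around the U3 snoRNP, forms on the early precursor, and a separate set of assembly factors builds the large subunit. snoRNPs modify the rRNA, RNase MRP cuts it, and the exosome trims and degrades RNA from its 3′ end. Growing cells express these factors together, and MYC is a known activator of many of their genes through E-box sequences in promoters.

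The study measured gene expression by RNA sequencing in 2 groups of 3 libraries each, all from HEK293A, a derivative of a human embryonic kidney line. Knockdown cells received siUBE2A and siUBE2B siRNA at 25 uM each, 50 uM in total, for 48 h, and control cells received vehicle for 48 h. UBE2A and UBE2B, together called RAD6, are paralogous ubiquitin-conjugating enzymes. Whether the vehicle held the transfection reagent, and whether replicates came from separate cultures, is not given in the sources used here, so the p-values speak only of variation among the 6 libraries, part of which may be technical.

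Replicates 1 and 2 of both groups came in 1 table, and the remaining knockdown and control library came in a second table whose columns name the group and no replicate number. Libraries held 10887217 to 14564624 counted reads, and 3 reads were worth 0.206 to 0.276 CPM by these totals, a limit for counting error only. CPM (counts scaled to a common library size) carry TMM factors in all values that follow. The tables stood apart: the first principal component, with 60.2% of the variance, separated them. The main test carried the table as a term, as the rule that set the members asked. UBE2A had 51.9, 57.7 and 49.1 CPM in knockdown libraries (replicate 1, replicate 2 and the second table, the order used throughout), against 99.6, 97.9 and 105 CPM in control libraries. Its log2 fold change, always knockdown over control, was -0.93 (standard error 0.07, edgeR adjusted p = 1.51e-12). UBE2B had 51.9, 55.0 and 46.0 CPM in knockdown, against 63.1, 64.1 and 61.2 CPM in control, a log2 fold change of -0.30 (standard error 0.07, edgeR adjusted p = 0.0126), a call that ended when any 1 of 4 libraries was left out: knockdown replicate 1 (adjusted p = 0.115), control replicate 2 (0.0672), or the knockdown (0.186) or control (0.136) library of the second table. Of genes usually read in HEK293 cells, LIN28B had 469 to 1294 counts and NEFL 1806 to 3028, while PAX2 had 26 to 49, NEFM 6 to 26 and INA 1 to 12. Of 5 markers of other cell types, PTPRC had 0 counts in each library, ALB and COL1A2 at most 2, CDH5 at most 5 and DES 17 to 30.

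Promoter sequences of 5 small subunit genes that were lower after knockdown are shown first. Of these, 4 hold the same short sequence near the start of transcription and 1 does not. RRP12, the other small subunit gene called lower, has no RefSeq window. Among all small subunit members with a window, 14 of 37 (37.8%) hold the sequence. Capitals mark CACGTG, an E-box that MYC with its partner MAX can bind and that reads the same on both strands. A match is not a measured binding site, and binding was not tested. Each run goes 5′ to 3′ along the gene's own strand, from 250 bases before the RefSeq start to 30 bases after it, on GRCh38.p14. The windows are chr2:130342647-130342926 (plus strand) for IMP4, chr2:28894417-28894696 (plus) for WDR43, chr9:33473895-33474174 (minus) for NOL6, chr12:101279855-101280134 (plus) for UTP20 and chr1:236604487-236604766 (minus) for HEATR1.
IMP4: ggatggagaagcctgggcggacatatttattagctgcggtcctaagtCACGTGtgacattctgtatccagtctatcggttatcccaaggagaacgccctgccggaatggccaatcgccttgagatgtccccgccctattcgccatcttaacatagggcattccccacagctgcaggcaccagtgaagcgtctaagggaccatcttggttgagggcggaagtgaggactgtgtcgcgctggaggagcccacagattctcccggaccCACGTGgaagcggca
WDR43: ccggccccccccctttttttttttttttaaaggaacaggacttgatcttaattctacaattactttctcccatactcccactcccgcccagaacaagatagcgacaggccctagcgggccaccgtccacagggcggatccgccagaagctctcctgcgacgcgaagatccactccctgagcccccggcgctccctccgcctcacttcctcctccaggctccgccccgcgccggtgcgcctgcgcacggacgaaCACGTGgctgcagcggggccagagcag
NOL6: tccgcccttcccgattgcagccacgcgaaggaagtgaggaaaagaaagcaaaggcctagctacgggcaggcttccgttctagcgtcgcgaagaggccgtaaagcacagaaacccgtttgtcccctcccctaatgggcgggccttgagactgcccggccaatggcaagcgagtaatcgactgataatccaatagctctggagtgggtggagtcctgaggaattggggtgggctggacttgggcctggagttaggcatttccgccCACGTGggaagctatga
UTP20: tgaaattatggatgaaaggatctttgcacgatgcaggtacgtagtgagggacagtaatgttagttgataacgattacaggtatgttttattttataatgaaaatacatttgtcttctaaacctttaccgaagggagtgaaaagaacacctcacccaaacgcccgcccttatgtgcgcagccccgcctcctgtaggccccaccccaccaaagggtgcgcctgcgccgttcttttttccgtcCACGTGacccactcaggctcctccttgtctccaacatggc
HEATR1: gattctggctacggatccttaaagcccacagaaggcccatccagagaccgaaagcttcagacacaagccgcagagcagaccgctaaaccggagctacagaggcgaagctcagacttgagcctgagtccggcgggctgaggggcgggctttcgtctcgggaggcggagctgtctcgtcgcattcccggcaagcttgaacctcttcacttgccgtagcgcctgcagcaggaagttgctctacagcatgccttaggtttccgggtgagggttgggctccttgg
Counting the first transcribed base as 1, the E-box began at base 16 in IMP4, at base 4 in WDR43 and at base 14 in NOL6. In UTP20 it began 10 bases before the start, and IMP4 held a further copy 203 bases before it. IMP4 has a second RefSeq start, whose window at chr2:130343020-130343299 held none. The HEATR1 window held none.

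Of the 140 members, 10 were lower after knockdown and 0 higher at an adjusted p under 0.05 (edgeR's quasi-likelihood test with the table term, Benjamini-Hochberg adjustment over all 13565 genes). That is 7.14% of members lower, beside 1.84% of all tested genes lower, 0.627% higher and 2.47% in either direction. The 10 are the small subunit factors RRP12, NOL6, IMP4, WDR43, HEATR1 and UTP20, the large subunit factors EBNA1BP2 and RRP1B, and DDX21 and PA2G4, which are in no role class. The count depended on single libraries: leaving out 1 library kept from 1 (without control replicate 2) to 7 (without control replicate 1) of the 10 calls, 3 without knockdown replicate 1, 5 without the knockdown library of the second table, and 6 without that table's control or without knockdown replicate 2. DESeq2 with the same terms kept 4. At an unadjusted p under 0.05, 29 members (20.7%) were lower and 1 (0.714%) higher, against 1091 (8.04%) and 821 (6.05%) of all genes. The changes were small: the median log2 fold change of the members was -0.088, with a middle 50% from -0.15 to -0.037, while the median of all tested genes was 0.0024. Log2 fold changes below 0 were found in 117 members (83.6%), against 49.4% of all genes. With the group as the sole term, 0 members and 0 of all genes (0%) passed.

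The summed level of the 140 members was 10903, 11126 and 10174 CPM in knockdown libraries, against 11526, 11785 and 10734 CPM in control libraries. Within each table the knockdown libraries were the lower ones, while across the tables the groups overlapped. Relative to the mean of its own table, the median log2 level of the members was -0.073, -0.021 and -0.049 in knockdown, against 0.026, 0.069 and 0.049 in control. In bulk RNA, fewer cells of a type and less RNA per cell cannot be told apart.

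**Figure D1:**
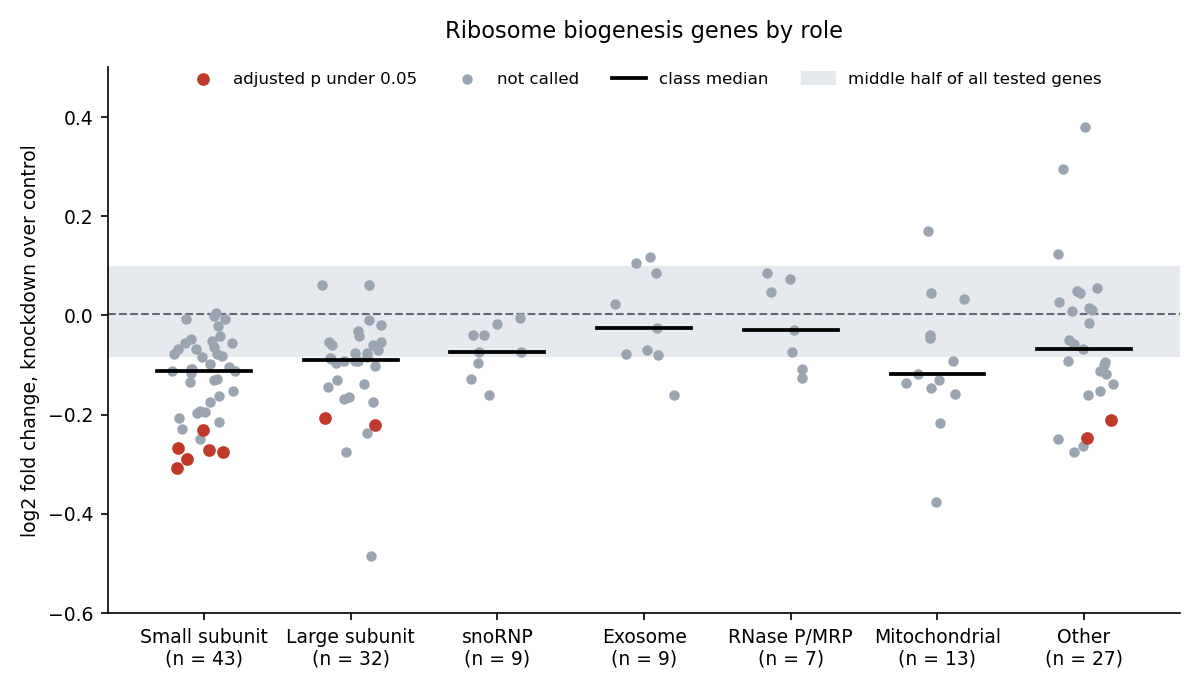
Each point is 1 member, placed by role on the horizontal axis and by its log2 fold change (knockdown over control, edgeR with the table term) on the vertical axis. Red points passed an adjusted p of 0.05, black bars are class medians, the dashed line is the median of all 13565 tested genes and the grey band holds their middle 50%. Below 0 lie 42 of 43 small subunit members and 30 of 32 large subunit members, against 49.4% of all tested genes. Of the 10 red points, 6 are small subunit factors, the largest class.

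Small subunit factors had the largest count of lower members. In this class 6 of 43 were lower and 0 higher, 42 of 43 had a log2 fold change below 0, and the class median was -0.11. Per library the class summed to 2806, 2915 and 2602 CPM in knockdown, against 3102, 3177 and 2826 CPM in control. Within each table the knockdown sums were the lower ones. The range ran from -0.31 for RRP12 to 0.0045 for TSR3. Values below 0 were not particular to this class: 30 of 32 large subunit factors and 9 of 9 snoRNP proteins had them. The 25 further small subunit factors that are not members gave 0 calls.

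WDR43 (ENSG00000163811, chromosome 2, 28894667 to 28948219 on hg38, plus strand) and HEATR1 (ENSG00000119285, chromosome 1, 236549005 to 236604516, minus strand) are subunits of the group of early processome proteins that also act in rDNA transcription. WDR43 had 122, 121 and 110.4 CPM in knockdown, against 139.9, 155 and 132 CPM in control. The groups did not overlap, and the log2 fold change was -0.27 (standard error 0.06, edgeR adjusted p = 0.00419). HEATR1 had 130.5, 126 and 97.4 CPM in knockdown, against 157, 158 and 112 CPM in control; both first-table knockdown values were above the second table's control. Its log2 fold change was -0.27 (standard error 0.06, edgeR adjusted p = 0.00417), and the tables gave -0.30 and -0.20, first table first. HEATR1 was the 1 member that passed whichever library was left out, with adjusted p from 0.00977 to 0.0475. WDR43 passed in 5 of those 6 fits and missed without control replicate 2 (edgeR adjusted p = 0.106). LGALS8 on the other strand covers 23.2% of HEATR1's exonic bases, and the strand setting of the counting is not given, so HEATR1's count is uncertain to that extent.

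IMP4 (ENSG00000136718, chromosome 2, 130342877 to 130347967, plus strand) belongs to the MPP10 complex that joins the U3 snoRNP to the precursor. It had 55.7, 62.8 and 46.4 CPM in knockdown, against 64.9, 71.3 and 63.3 CPM in control. The groups did not overlap, and the log2 fold change was -0.28 (standard error 0.07, edgeR adjusted p = 0.0296). NOL6 (ENSG00000165271, chromosome 9, 33461353 to 33473930, minus strand), a processome protein, had 38.6, 42.9 and 36.6 CPM in knockdown, against 52.5, 51.0 and 41.1 CPM in control. Its knockdown replicate 2 was above the second table's control, and its log2 fold change was -0.29 (standard error 0.08, edgeR adjusted p = 0.0363). UTP20 (ENSG00000120800, chromosome 12, 101280105 to 101386618, plus strand), a large HEAT-repeat protein of the processome, had 70.5, 72.8 and 48.8 CPM in knockdown, against 81.1, 86.6 and 57.8 CPM in control. Its tables gave nearly the same log2 fold change, -0.23 and -0.24, and the joint value was -0.23 (standard error 0.07, edgeR adjusted p = 0.0491).

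RRP12 (ENSG00000052749, chromosome 10, 97356358 to 97426076, minus strand), whose yeast homologue acts in export of pre-ribosomes, had the lowest log2 fold change of the called members. It had 39.0, 45.2 and 41.4 CPM in knockdown, against 57.8, 56.9 and 41.0 CPM in control. The first table alone showed the difference: the log2 fold change was -0.45 there and 0.016 in the second table, with a joint value of -0.31 (standard error 0.08, edgeR adjusted p = 0.0371). These 4 calls were lost in most fits that left out 1 library, although each log2 fold change stayed below 0 in all 6 fits. RRP12 missed the threshold without knockdown replicate 1 (edgeR adjusted p = 0.476), knockdown replicate 2 (0.0796), control replicate 1 (0.130) or control replicate 2 (0.262). IMP4 missed it without knockdown replicate 1 (0.266), control replicate 2 (0.198) or the knockdown (0.343) or control (0.282) library of the second table. NOL6 passed without the second table's control alone (0.0387), and missed in the other 5 fits (0.0519 without knockdown replicate 2 to 0.353 without knockdown replicate 1). UTP20 passed without control replicate 1 alone (0.0444), and missed in the other 5 (0.0733 without knockdown replicate 2 to 0.306 without control replicate 2).

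Members just outside the threshold in this class were RRP7A and BYSL, both needed for early processing in the small subunit pathway. RRP7A had 75.8, 82.6 and 74.4 CPM in knockdown, against 91.3, 94.7 and 83.9 CPM in control, without overlap (log2 fold change -0.21, edgeR adjusted p = 0.0585). BYSL had 41.4, 48.9 and 44.1 CPM in knockdown, against 50.5, 54.9 and 54.3 CPM in control, also without overlap (log2 fold change -0.25, edgeR adjusted p = 0.0862). At the other end, TRMT112, the partner of several methyltransferases and the member with the highest level per length at a mean of 129 FPKM, had a log2 fold change of -0.00075.

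**Figure D2:**
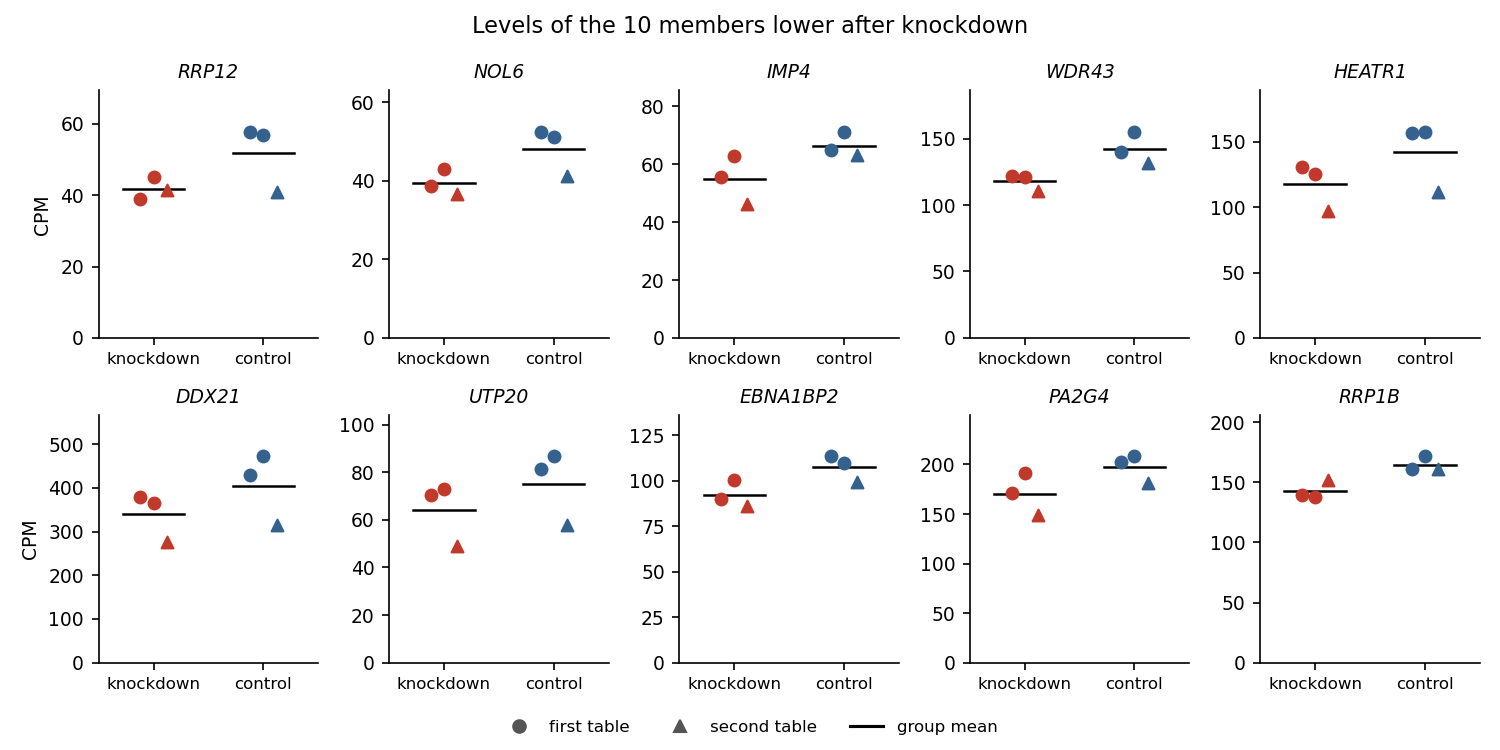
Each panel shows 1 of the 10 members lower after knockdown, with CPM (TMM factors) on the vertical axis from 0 and the knockdown libraries left of the control libraries. Circles are the first table, triangles the second and bars the group means; IMP4, WDR43 and RRP1B have groups that do not overlap.

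Large subunit factors showed 2 lower members of 32 (6.25%) and 0 higher, against 1.84% and 0.627% of all tested genes. The class median was -0.090, and 30 of 32 log2 fold changes were below 0, against 49.4% of all tested genes. Per library the class summed to 2481, 2585 and 2407 CPM in knockdown, against 2677, 2761 and 2535 CPM in control. EBNA1BP2 (ENSG00000117395, chromosome 1, 43164175 to 43270936, minus strand), whose yeast homologue is an early large subunit assembly factor, had 90.1, 101 and 86.1 CPM in knockdown, against 113, 109.8 and 99.4 CPM in control. The overlap was 1 pair, with knockdown replicate 2 above the control of the second table, and the log2 fold change was -0.22 (standard error 0.06, edgeR adjusted p = 0.0363). CFAP57 on the other strand covers 18.8% of its exonic bases.

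RRP1B (ENSG00000160208, chromosome 21, 43659560 to 43696079, plus strand), a nucleolar protein of precursor large subunits and a targeting subunit of protein phosphatase PP1, had 139, 138 and 152 CPM in knockdown, against 161, 171 and 161 CPM in control. The groups did not overlap, and the log2 fold change was -0.21 (standard error 0.06, edgeR adjusted p = 0.0367), and by table -0.26 and -0.085, first table first. Leaving out 1 library at a time, RRP1B missed the threshold without knockdown replicate 1 (edgeR adjusted p = 0.254), knockdown replicate 2 (0.130) or control replicate 2 (0.347). EBNA1BP2 passed without knockdown replicate 2 alone (0.0221), and missed in the other 5 fits (0.104 without control replicate 1 to 0.353 without knockdown replicate 1). NIP7, a large subunit factor with a PUA RNA-binding domain, was outside the threshold: it had 35.5, 38.8 and 28.1 CPM in knockdown, against 41.8, 44.3 and 37.8 CPM in control (log2 fold change -0.28, edgeR adjusted p = 0.0739). It passed without knockdown replicate 2 (log2 fold change -0.34, adjusted p = 0.0464), and COG8 on the other strand covers 20.2% of its exonic bases. PPAN had the lowest log2 fold change of all members, -0.49, on a mean count of 24, and it shares 59.8% of its exonic bases with a readthrough transcript and P2RY11, so its count is uncertain.

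The contrast between subunits was small. The small subunit median was below the large subunit median by 0.022 (small minus large, -0.022 on the log2 scale), and by 0.039 in the first table alone. In log2 CPM, each of the 3 knockdown libraries was also set against the control mean of its own table. The small minus large difference then had an SD of 0.011. This SD leaves out variation among control libraries, and the first-table values share 1 control mean, so it is no error of the -0.022. The ratio of the summed CPM of the small to the large subunit class was 1.13, 1.13 and 1.08 in knockdown libraries, against 1.16, 1.15 and 1.12 in control libraries. Relative to the table means, the small minus large median was -0.017, -0.031 and -0.015 in knockdown, against 0.035, 0.025 and 0.015 in control. Centring on the table mean ties the knockdown and control values of a table to each other, so these are no independent evidence of a difference. In the ratio of sums, knockdown was below control within each table, while across the tables both first-table knockdown values were above the second table's control. The large subunit class had the higher level per length, with a median of 18.4 FPKM over members, against 12.4 FPKM in the small subunit class.

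**Figure D3:**
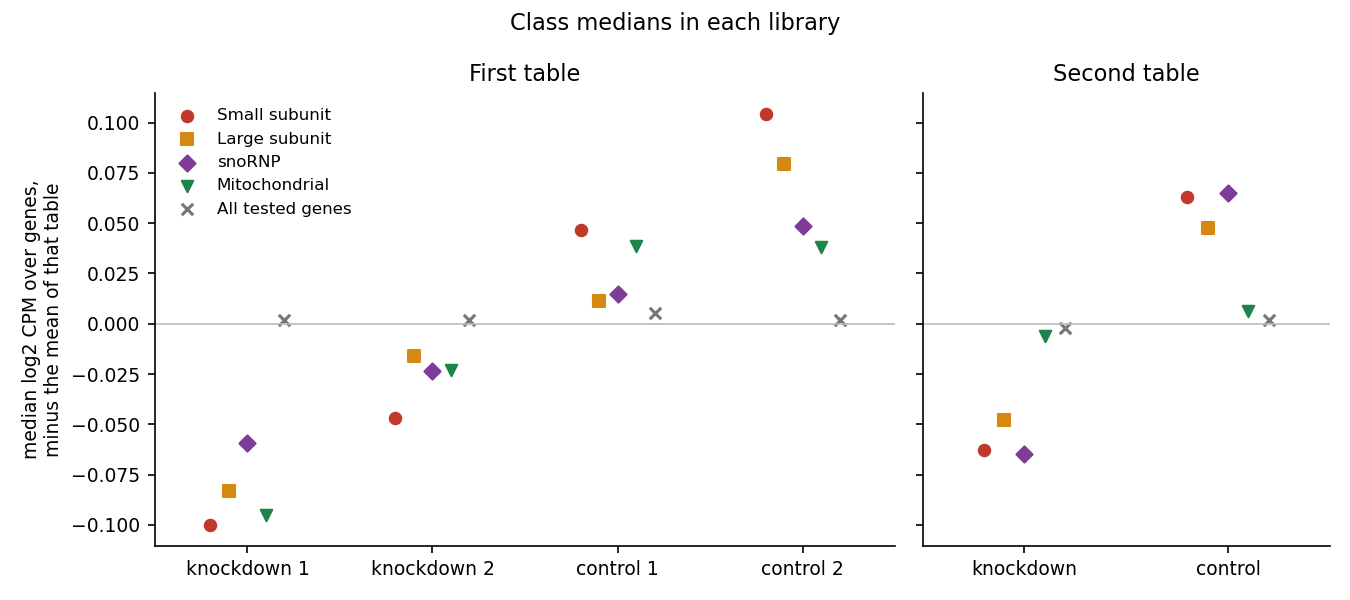
The vertical axis is the median over a class of log2 CPM minus that gene's mean in the same table, and the horizontal axis lists the libraries, knockdown left of control, in separate panels for the 2 tables. Small subunit medians were -0.10, -0.047 and -0.063 in knockdown libraries, against 0.047, 0.10 and 0.063 in control libraries, while the crosses for all tested genes stay within 0.0053 of 0.

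The proteins of modification, trimming and cutting gave no call. None of the 9 snoRNP proteins passed, although all 9 log2 fold changes were below 0 (class median -0.073); the class median was 0.0042 in the first table, against -0.13 in the other. FBL, the methyltransferase of box C/D snoRNPs, had 257, 248 and 274 CPM in knockdown, against 243, 260.5 and 299 CPM in control, and the groups overlapped (log2 fold change -0.040). NOP10, a core protein of box H/ACA snoRNPs, had 47.9, 44.8 and 30.2 CPM in knockdown, against 40.3, 51.1 and 32.9 CPM in control (log2 fold change -0.017).

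Of the 9 exosome proteins 0 passed, 5 had log2 fold changes below 0, and the class median was -0.025 (0.034 in the first table, against -0.11 in the other). MTREX, the nuclear helicase that feeds RNA to the exosome, had a log2 fold change of -0.078 and the exosome cofactor MPHOSPH6 one of -0.025. The subunits EXOSC8, EXOSC1 and EXOSC6 were among the highest members with at least 5 CPM, at 0.12, 0.11 and 0.085, none past the threshold (edgeR adjusted p = 0.491, 0.605 and 0.665). By table, first table first, EXOSC8 had 0.25 and -0.17, EXOSC6 0.16 and -0.060, and EXOSC1 0.073 and 0.19. Of the 7 RNase P or MRP proteins 0 passed and the median was -0.030; POP7 had -0.13 and RPP30 -0.073.

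The 13 mitochondrial factors, which assemble or modify the separate ribosome of mitochondria, also gave 0 calls. Their median log2 fold change was -0.12 with 10 of 13 below 0, but by table it was -0.12 and -0.012, first table first. MRM1, a methyltransferase of mitochondrial rRNA, had 4.89, 7.33 and 6.62 CPM in knockdown, against 9.79, 7.88 and 6.58 CPM in control, a wide overlap (log2 fold change -0.38, edgeR adjusted p = 0.355). TFB1M, which dimethylates the rRNA of the small mitochondrial subunit, had 11.5, 13.7 and 11.1 CPM in knockdown, against 10.6, 11.0 and 10.6 CPM in control. Its groups did not overlap, with a log2 fold change of 0.17 (edgeR adjusted p = 0.638). The large subunit protein MRPL36 had -0.14 and ERAL1, a chaperone of mitochondrial rRNA, -0.13.

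Outside the role classes, 2 of 27 members (7.41%) were lower, against 1.84% of all tested genes. DDX21 (ENSG00000165732, chromosome 10, 68956135 to 68985068, plus strand), a nucleolar RNA helicase that binds rRNA and snoRNAs, had 378, 366 and 276 CPM in knockdown, against 428, 472 and 314 CPM in control. Knockdown was below control within each table, by -0.27 and -0.19 on the log2 scale, and the joint value was -0.25 (standard error 0.05, edgeR adjusted p = 0.00450). The call ended in the fit without control replicate 2 (adjusted p = 0.128), and the length given for DDX21 differs between the tables. PA2G4 (ENSG00000170515, chromosome 12, 56104537 to 56113910, plus strand), which binds precursor and mature large subunits, had 172, 191 and 149 CPM in knockdown, against 202, 208 and 181 CPM in control. The log2 fold change was -0.21 (standard error 0.06, edgeR adjusted p = 0.0272), and a gene on the same strand covers 12.1% of its exonic bases. It missed the threshold without knockdown replicate 1 (0.287), control replicate 2 (0.147) or the knockdown (0.274) or control (0.210) library of the second table.

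DDX17, a DEAD-box helicase with roles in rRNA processing and splicing, went the other way. It had 1070, 996 and 1011 CPM in knockdown, against 986, 908 and 929 CPM in control. The groups did not overlap, but the log2 fold change of 0.12 missed the threshold (edgeR adjusted p = 0.238). DDX17 was the most abundant member in CPM, at a mean of 983, and the 1 member higher at an unadjusted p under 0.05.

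Over all 6 libraries the groups did not overlap for 12 members lower in knockdown (8.57%) and 2 higher (1.43%), DDX17 and TFB1M. The shares for all tested genes were 3.74% lower, 3.93% higher and 7.67% in either direction. In the first table alone, every knockdown replicate was below every control replicate for 61 members (43.6%), against 21.1% of all genes. The members' median log2 fold change was -0.081 and -0.099 by table, first table first. Values below 0 in both tables were found for 85 members (60.7%), against 3992 of 13565 genes (29.4%), and values above 0 in both for 6 members (4.29%), against 29.1%. Between the 10th and 90th percentiles of the members' abundance, 11.2 to 154 CPM, 8 of 112 members (7.14%) and 168 of 8685 genes in all (1.93%) were lower; DDX21 and PA2G4 lie above this band.

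**Figure D4:**
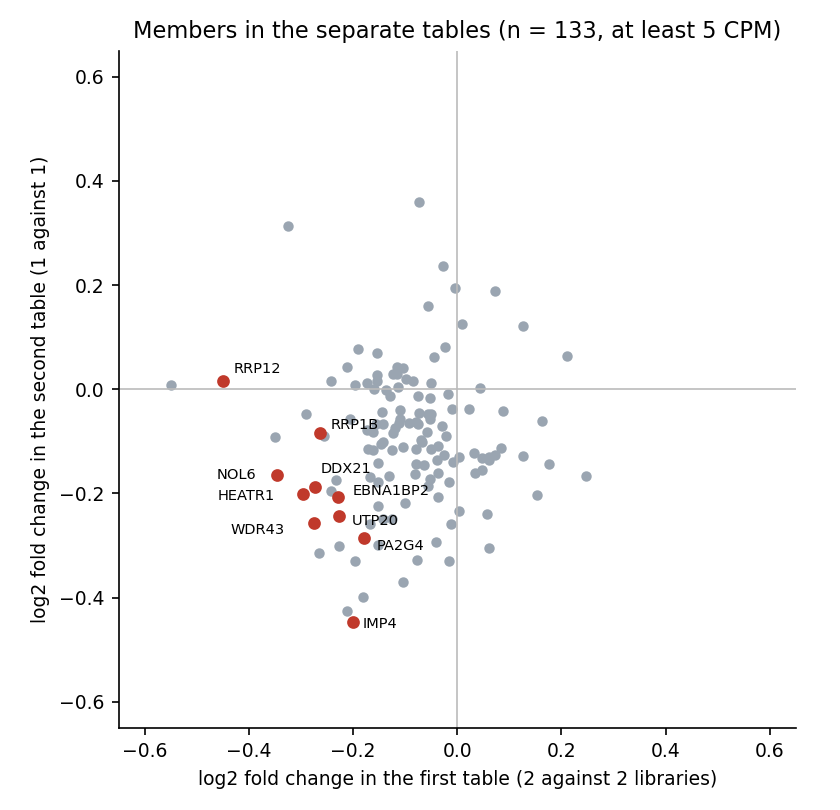
Each point is 1 of the 133 members with a mean of at least 5 CPM, with the log2 fold change (knockdown over control) in the first table on the horizontal axis and in the second table on the vertical axis. Of the red points, which passed an adjusted p of 0.05 in the joint fit, all but RRP12 are below 0 on both axes.

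Further factors of the same roles, which are not members, were counted from the role lists. Of 25 further small subunit factors 0 passed, with a median log2 fold change of -0.11 and 22 below 0. Of 37 further large subunit factors 2 were lower and 1 higher, with a median of -0.10. Over all tested genes 1.84% were lower and 0.627% higher. PES1, the scaffold of the complex that bears its name, had 172, 192 and 176 CPM in knockdown, against 212, 213 and 203 CPM in control, without overlap (log2 fold change -0.22, edgeR adjusted p = 0.0171). DDX18, a large subunit helicase, had a log2 fold change of -0.22 (edgeR adjusted p = 0.0171). NOP53, a late large subunit factor, had 269, 265 and 406 CPM in knockdown, against 221, 242 and 345 CPM in control, and was higher within each table (log2 fold change 0.22, edgeR adjusted p = 0.0144). In the other lists, RUVBL1, an ATPase of snoRNP assembly, was lower, as 1 of 9 further snoRNP genes (log2 fold change -0.28, edgeR adjusted p = 0.00358). None of 5 further exosome genes, 3 RNase P or MRP genes and 23 mitochondrial factors passed. For PES1, DDX18, NOP53 and RUVBL1, named after their values were seen, results with a library left out are not given here. In a list of 21 RNA polymerase I genes 0 passed, 17 had log2 fold changes below 0 and the median was -0.074. Besides subunits and initiation factors it holds the termination factor TTF1. It also holds TBP, POLR2E, POLR2F, POLR2H, POLR2K and POLR2L, which other RNA polymerases share. Above 0 were TBP (0.14), POLR2F (0.11), TAF1C (0.051) and POLR2L (0.040). RRN3, the initiation factor that is also a member, had -0.058, the subunit POLR1B -0.16 and UBTF, which binds rDNA, -0.078.

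The members' promoters were searched for 2 motifs. RefSeq gave promoter windows of 250 bases before to 50 after the start for 120 of the 140 members and 10984 tested genes. A window with CACGTG was present for 37 of 120 members (30.8%), against 1355 of 10984 tested genes (12.3%); 7.26% of all 35116 RefSeq windows hold it. The share was 14 of 37 (37.8%) for small subunit and 9 of 28 (32.1%) for large subunit members, and 2 of 13 (15.4%) for mitochondrial members. The 62 listed small and large subunit factors that are not members gave 17 of 50 (34.0%). Of the members lower after knockdown that have a window, 6 of 8 hold the E-box: besides the 4 printed genes these are EBNA1BP2 and DDX21, while HEATR1 and PA2G4 do not. By window it was 7 of 11, since IMP4 and DDX21 hold it in 1 of 2 windows each. Over all tested genes lower after knockdown it was 37 of 187 genes (19.8%). The share of 6 of 8 rests on calls that depended on single libraries, and RRP12 and RRP1B have no window. HEATR1, the 1 call kept whichever library was left out, holds no E-box. NOL6, UTP20 and EBNA1BP2, which hold it, each missed in 5 of those 6 fits. Of the calls that DESeq2 kept, DDX21 and WDR43 hold it, and HEATR1 and PA2G4 do not.

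Positions and levels of change are given as a description. With a site in overlapping windows of 1 gene counted once, at its nearest start, 33 of 44 E-box sites of members (75%) began no more than 100 bases before the start or after it. The share over all tested genes was 935 of 1555 sites (60.1%). The median log2 fold change was -0.12 for members with the E-box and -0.078 for members without, and -0.16 and -0.097 within the small subunit class. Over all tested genes these medians were -0.012 and 0.0042. A different sequence, CCGGAAG on either strand, the core read by ETS factors, was in a window of 52 of 120 members (43.3%), against 2345 of 10984 tested genes (21.3%) and 10.3% of all windows. It was in 2 of the 8 members lower after knockdown, and the median log2 fold change was -0.096 with it and -0.078 without it. By their letters the 2 motifs cannot overlap each other, and a match is not a measured binding site.

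**Figure D5:**
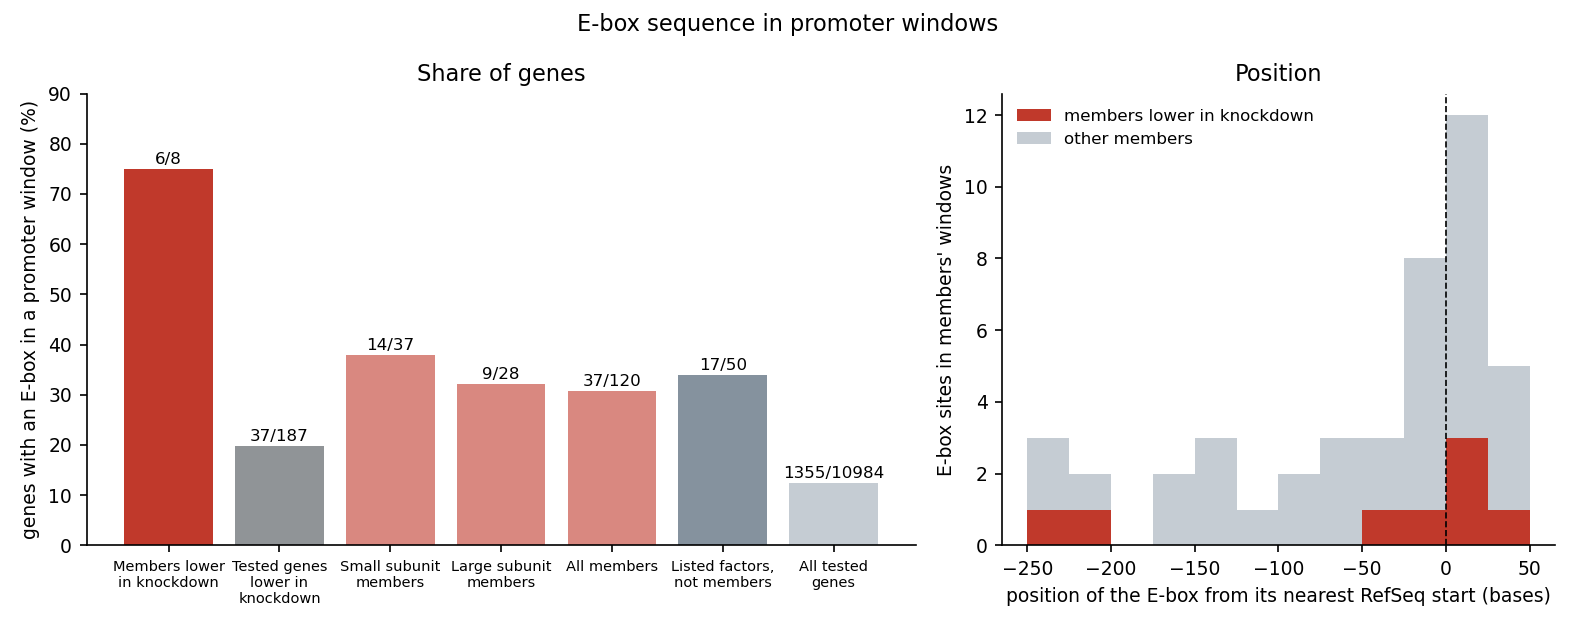
The left panel gives the percent of genes with a RefSeq promoter window that holds the E-box, with the counts above the bars, and the right panel counts E-box sites in members' windows by distance in bases from the nearest start (bins of 25 bases, dashed line at the start). The bars stand at 75% for members lower after knockdown, 19.8% for all tested genes lower after knockdown, 30.8% for all members and 12.3% for all tested genes, and 33 of the 44 sites began no more than 100 bases before the start or after it.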

How the data were processed

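RNA of 6 HEK293A libraries was analysed from 2 deposited tables. The authors' counts are whole reads for each gene with no normalization, made with HISAT2 and HTSeq on hg38 per the submitters' processing notes. Versions, annotation and strand setting are not given there. The authors' FPKM values were deposited beside them and equal the count divided by gene length and library total, with a relative difference of at most 1.6e-06 for genes of at least 1 FPKM. Without the strand setting, reads of overlapping genes cannot be told apart.

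The tables were joined by Ensembl identifier (19987 and 19973 genes, 19922 shared); 17 members have different lengths in the 2 tables. Gene symbols were matched in the reference name list for 19875 genes and copied from the deposited tables for 47. No gene ontology text was used for 5172 genes.

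Genes with a mean count of at least 10 entered edgeR 4.0.16 (R 4.3.3; TMM, table and group as terms, quasi-likelihood test, Benjamini-Hochberg over 13565 genes, adjusted p under 0.05). Standard errors are the log2 fold change divided by the square root of F. Values by table are differences of log2 CPM with a prior count of 0.5. The fit was tested on simulated data. Alternatives were the group as sole term, a replicate block, RLE factors, DESeq2 1.42.0, limma-voom 3.58.1, other filters, the first table alone and each library left out. Exonic overlap came from the reference annotation, and motifs from RefSeq promoter windows on GRCh38.p14.

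Named genes were all members past the threshold, 2 of each class by change or, where none passed, by FPKM, and the 5 highest and 5 lowest members of at least 5 CPM. RRP7A, BYSL, TRMT112, TSR3, PPAN and the non-member genes were chosen after their values were seen. The members and lists were chosen with earlier results of these data known.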

Additional observations from a re-analysis of the deposited data

How the results depend on the processing

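Of the 10 members lower after knockdown, all kept their direction in every alternative that tested them. With the group as the sole term 0 members passed (small subunit 0, large subunit 0, all genes 0 lower and 0 higher), and UBE2A had a log2 fold change of -0.93 (adjusted p = 0.0850) and UBE2B -0.30 (adjusted p = 0.999). DESeq2 called 4 members lower, DDX21, PA2G4, WDR43 and HEATR1, with 2 small and 0 large subunit factors and 25 of all genes higher. Without a filter beyond 1 count, 134 of all genes were higher. The first table alone called 5 members, 3 small and 1 large subunit factors, and 142 lower and 26 higher of all genes; the small minus large median was -0.039 and UBE2B had -0.25 (adjusted p = 0.168). With 1 library left out, members lower ran from 1 (without control replicate 2) to 8, small subunit factors from 1 to 4, large subunit factors from 0 to 2, all genes lower from 77 to 290 and higher from 13 to 145. Without the second table's knockdown library the counts were 5 members, 123 of all genes lower and 24 higher, and without its control 6, 161 and 26. The same fits gave small minus large medians of -0.039 to -0.014 and UBE2B values of -0.35 to -0.25, among them -0.25 and -0.26 when the knockdown or control library of the second table was dropped, -0.29 when knockdown replicate 1 was and -0.31 when control replicate 2 was. The members' median stayed between -0.11 and -0.074.

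Values near 0 changed sign. In the first table alone FBL had 0.0037, NOP10 0.025 and MPHOSPH6 0.033. Without 1 library, FBL reached 0.0072, NOP10 ran from -0.13 to 0.076 and MPHOSPH6 from -0.091 to 0.037; without the second table's knockdown and control they were 0.028 and 0.014 for NOP10 and 0.037 and 0.023 for MPHOSPH6, which had 0.0046 without control replicate 2. The causes were not tested.

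The numbers were not taken to pair the samples: deviations of same-numbered libraries had a correlation of 0.015 over genes, and with 2 pairs no further check could be made. With the replicate block added, 10 members were lower, as were 267 of all genes, and 99 were higher, which changed no count by more than 1.5 times. RLE factors, limma-voom, the filterByExpr minimum, at least 5 CPM and equal gene length kept 10, 9, 10, 9 and 9 of the 10 calls; with equal length 9 were tested. Depth limits the 7 members under 5 CPM most, DDX47 and PPAN among them.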
